A study of Mus musculus with 14 samples.

Results

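The genes of cholesterol synthesis, uptake and excretion were described in the liver of TALLYHO mice given indole or vehicle. The 30 genes were the rows of the deposited count table whose gene name was one of a fixed list covering the SREBP2 control system, the enzymes from acetyl-CoA to cholesterol, and the genes for uptake, esterification and export. The table holds 55487 genes, and all 30 were among the 12653 with enough reads to be tested. The mice were male TALLYHO/JnG, an inbred polygenic model in which males develop type 2 diabetes, aged 8–12 weeks and fed standard chow. Of the 14 mice, 7 received indole at 20 mg/kg and 7 received vehicle (water) by gavage, with 2 doses per day over 7 days. A further 2 doses were given between a glucose tolerance test and an insulin tolerance test, and the right liver lobe was taken the day after the later of these. Every value here is therefore from an animal of this strain that had been gavaged and tested.

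Liver cells make cholesterol from acetyl-CoA through mevalonate, squalene and lanosterol, and also take it up from plasma lipoproteins. When sterols are scarce in the endoplasmic reticulum, the escort protein SCAP carries the transcription factor SREBP2 to the Golgi, where it is cut and released to switch on the genes of synthesis and uptake, and when sterols are plentiful the INSIG proteins hold SCAP back. Surplus cholesterol is esterified, turned into bile acids, or pumped into bile by the paired transporters ABCG5 and ABCG8.

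The reads assigned to genes numbered 15390922 to 21060376 in each vehicle-treated mouse and 15197498 to 18464326 in each indole-treated mouse. Levels are given as CPM, read counts scaled to a common library total, after trimmed mean of M values (TMM) scaling. The hepatocyte marker *Alb* had means of 64641 CPM (vehicle) and 64901 CPM (indole). Of the 5 hepatocyte markers 4 were higher in the indole group, and *Ttr* alone had an unadjusted *p* below 0.05 (log2 fold change 0.24, SE 0.0843). The liver lobe was sequenced whole, so fewer cells of a type and less RNA per cell cannot be told apart in these values. Nothing in the labels says that any of the mice shared a litter, a cage or a batch, and the mice are named G1 to G14 here as in the labels.

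No cholesterol gene differed between the groups at an adjusted *p* below 0.05 in edgeR. The 3 with an unadjusted *p* below 0.05 were all lower in indole-treated mice: *Scarb1*, the receptor for HDL, *Npc1*, which moves cholesterol out of lysosomes, and *Insig2*, which retains SCAP. These 3 are 10% of the 30, against 3.81% of all genes tested that passed the same unadjusted threshold, or 482 of 12653. In the lower direction alone the share of all genes tested was 2.28%, and in the higher direction, where the list had 0 genes, it was 1.53%. Across all genes tested 0 had an adjusted *p* below 0.05 in edgeR, and DESeq2 on the same genes gave 1. DESeq2 had the same 3 cholesterol genes below an unadjusted *p* of 0.05, beside 4.2% of all genes tested. The count of 3 fell to 1 when mouse G5 was left out, with *Scarb1* remaining, beside 3.19% of all genes tested. It also fell to 1 when mouse G9 was left out, with *Insig2* remaining, beside 3.17%.

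Of the 18 enzymes of synthesis, 0 were below an unadjusted *p* of 0.05 in either direction. Their log2 fold changes ran from −0.15 to 0.14 with a median of −0.05. For all 30 genes the median was also −0.05, while the median over all genes tested was 0.00415. Of the 30 genes, 21 were lower in the indole group and 9 were higher, beside 48.7% lower among all genes tested. That lean depended on single mice, growing without some and shrinking without others. Without the indole-treated mouse G5, 25 of the 30 were lower. Without the vehicle-treated mouse G4 or the indole-treated mouse G12, 24 were lower. Without the vehicle-treated mouse G11, 11 of the 30 were lower and the median was 0.03, without the indole-treated mouse G2 15 were lower (median −0.0048), and without the vehicle-treated mouse G10 16 were lower (median −0.01). For 0 of the 30 genes did the 7 values of one group lie wholly apart from those of the other, which happened for 0.0474% of all genes tested.

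**Figure D1:**
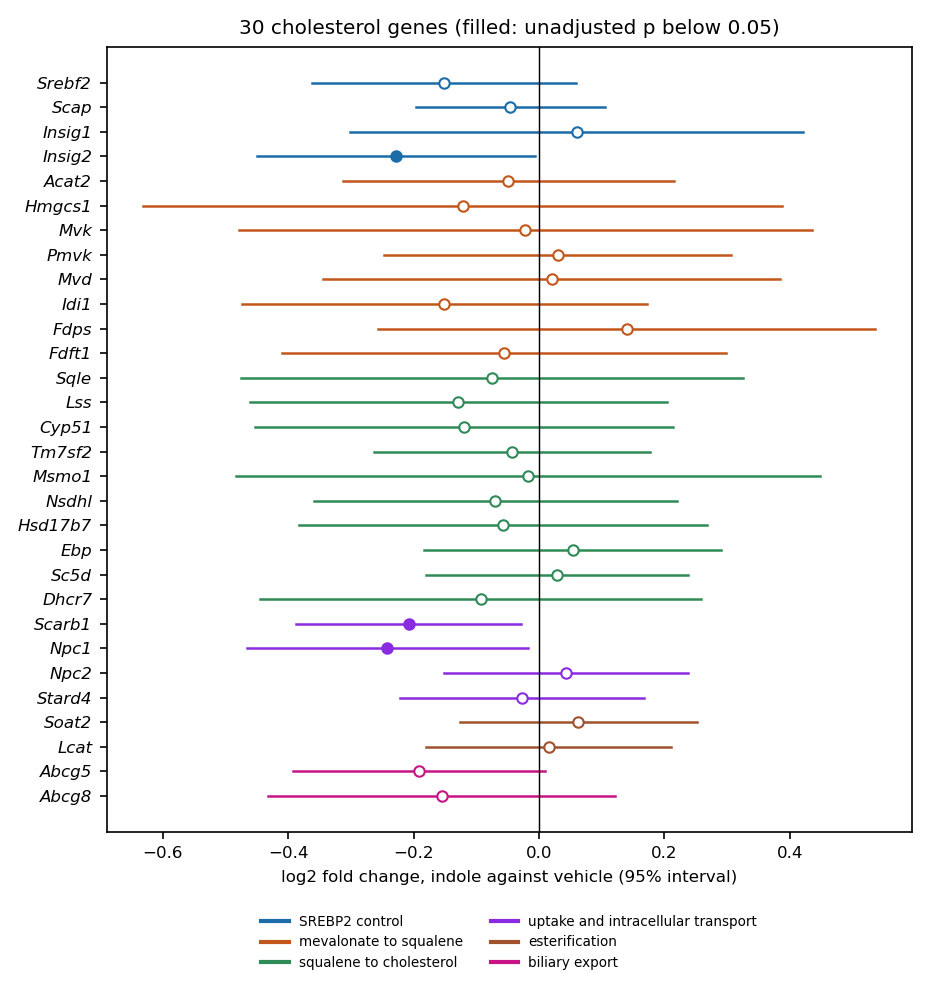
Log2 fold change of each of the 30 genes in indole-treated against vehicle-treated mice (*n*=7 per group), with approximate 95% intervals, coloured by role. Filled points (*Insig2*, *Scarb1* and *Npc1*) have an unadjusted *p* below 0.05, and the intervals of the synthesis enzymes all span 0.

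Per kilobase of gene length, the scale on which genes can be compared with each other, the highest of the 30 was *Lcat*, the plasma enzyme that esterifies cholesterol on HDL, at 357 CPM per kilobase in the vehicle group. The enzymes *Hmgcs1*, which makes HMG-CoA, at 171 CPM per kilobase, and *Ebp*, a sterol isomerase, at 124 CPM per kilobase led the early and late steps of synthesis. *Insig1* was at 147 CPM per kilobase and *Insig2* at 35.7. In the vehicle group the transporters *Abcg5* and *Abcg8* were nearly level, at 14.9 and 15.1 CPM per kilobase. The lowest was *Fdps*, farnesyl diphosphate synthase, at 2.16 CPM per kilobase. Only uniquely mapped reads were kept, and *Fdps* has close copies elsewhere in the mouse genome, so its level is uncertain.

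**Figure D2:**
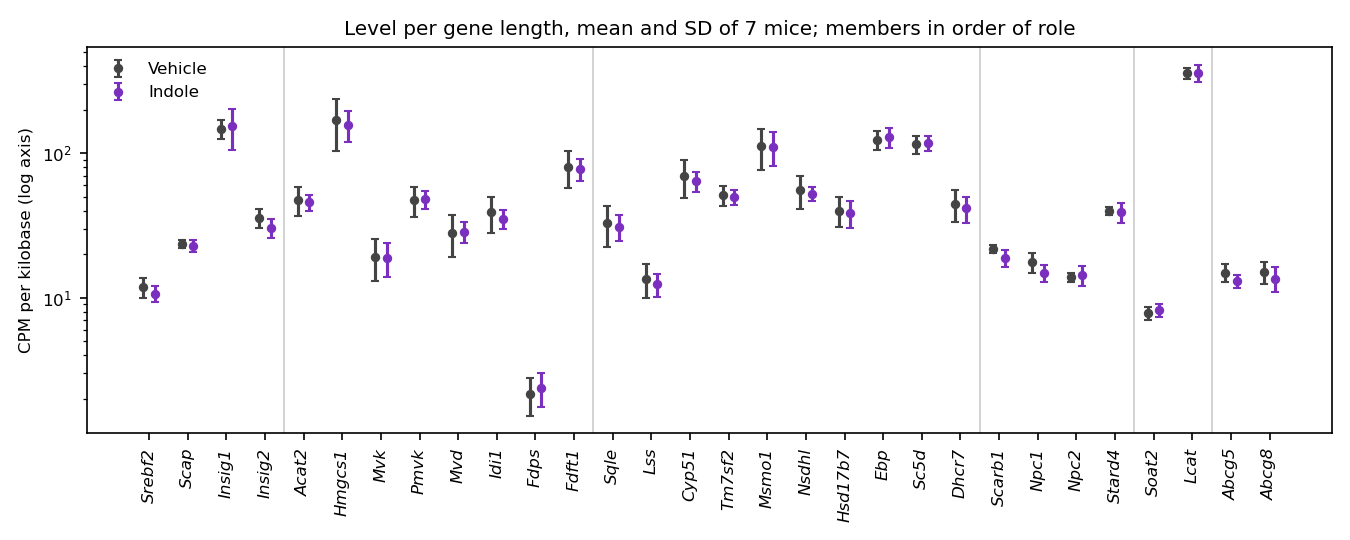
Mean and SD over 7 mice of the level per kilobase of gene length (log axis) for the 30 genes in order of role, from SREBP2 control on the left to biliary export on the right. *Lcat* is highest at 357 and *Fdps* lowest at 2.16 CPM per kilobase in the vehicle group, and the groups lie close together for every gene.

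Among the genes of SREBP2 control, 1 of 4 had an unadjusted *p* below 0.05. *Insig2* lies at chr1:121304353-121332589 on the minus strand of GRCm38. It ran from 103 to 152 CPM with a median of 117 in vehicle-treated mice, and from 79.5 to 127 CPM with a median of 104 in indole-treated mice. The groups overlapped over much of their range, although in the indole group 1 of 7 mice exceeded the vehicle median. The means were 124±18 and 106.0±15.7 CPM (SD, *n*=7), a log2 fold change of −0.23 (SE 0.102), with an unadjusted *p*=0.0368 and an adjusted *p*=0.998 in edgeR. The exact permutation test over every relabelling of the 14 mice, two-sided, gave *p*=0.0676. The unadjusted *p* rose above 0.05 in limma voom (0.0818) and when any of 6 mice was left out, with 0.0688 without G2, 0.0904 without G3, 0.0532 without G5, 0.0939 without G11, 0.103 without G13 and 0.065 without G14.

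*Insig1* is the other gene of the pair and itself a target of SREBP2. Its level was 455±66.8 CPM in vehicle-treated and 475±149 CPM in indole-treated mice, a log2 fold change of 0.06 (95% interval −0.30 to 0.42). Single indole-treated mice were spread from 289 CPM in G5 to 736 CPM in G14, wider than the vehicle range of 395 to 591 CPM. Without G14 its log2 fold change was −0.08. *Srebf2*, which encodes SREBP2, was at 84.8±13 CPM (vehicle) and 76.4±9.47 CPM (indole), a log2 fold change of −0.15 (SE 0.0968, unadjusted *p*=0.134). The 7 vehicle-treated mice ran from 72.1 to 111 CPM around a median of 83.5, and the indole-treated mice from 60.2 to 85.6 CPM around a median of 79.9. *Scap* had the smallest difference of the 4, with a log2 fold change of −0.05 (SE 0.0694).

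The first stretch of synthesis, from acetyl-CoA to squalene, comprised 8 genes. *Acat2* joins acetyl-CoA units, *Hmgcs1* adds a further unit, *Mvk*, *Pmvk* and *Mvd* phosphorylate and decarboxylate mevalonate, *Idi1* interconverts the isoprene units, *Fdps* condenses them and *Fdft1* makes squalene. *Hmgcs1* ran from 492 to 1312 CPM with a median of 669 in vehicle-treated mice, and from 443 to 918 CPM with a median of 726 in indole-treated mice. The indole range lay almost wholly inside the vehicle range, and the indole median was the higher of the medians although the indole mean was the lower of the means. The means were 784±306 and 720±174 CPM, a log2 fold change of −0.12 with a 95% interval of −0.63 to 0.39. Without G11 it was 0.05. The other 7 genes had log2 fold changes from −0.15 for *Idi1* to 0.14 for *Fdps*, and 5 of the 8 were lower in the indole group.

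The remaining 10 enzymes carry squalene to cholesterol. *Sqle* epoxidises squalene, *Lss* closes the rings, *Cyp51*, *Msmo1*, *Nsdhl* and *Hsd17b7* remove methyl groups, and *Tm7sf2*, *Ebp*, *Sc5d* and *Dhcr7* move or reduce double bonds. *Sqle* ran from 125 to 284 CPM around a median of 160 after vehicle, and from 118 to 214 CPM around a median of 177 after indole. Its groups overlapped almost fully, and its log2 fold change was −0.07 (SE 0.184), turning to 0.07 without G11 and to 0.00181 without G2 or 0.00569 without G10. *Ebp* was at 287±42.5 CPM and 298±47.6 CPM, a log2 fold change of 0.05 (SE 0.109). Of the 10 genes, 8 were lower in the indole group, and their median log2 fold change was −0.06. The span of *Tm7sf2*, introns included, shares 532 bases with that of *Vps51* on the same strand. The span of *Fdft1* likewise shares 774 bases with that of *Ctsb* on the opposite strand. Reads from any exons in those stretches are of uncertain origin.

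The enzymes of synthesis varied widely from mouse to mouse, and largely in the same mice. In vehicle-treated mouse G11 all 18 enzymes were above their mean over the 14 mice, with a median deviation of 0.61 in log2 CPM, and 14 of the 18 were at their highest there. In vehicle-treated mouse G4 all 18 were below their mean (median −0.42), and in indole-treated mouse G2 likewise (median −0.39), where 9 of the 18 were at their lowest. Mouse G5 was the highest of the indole group for 11 of the 18, with a median deviation of 0.24. The median coefficient of variation of the enzymes was 27.0% for vehicle and 17.3% for indole. The spread was wider in the vehicle group for 17 of the 18, or 94.4% of them, beside 39.2% of all genes tested. Without G11 the vehicle value was 18.8% and the count was 12 of 18, so most of this gap came with that mouse.

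**Figure D3:**
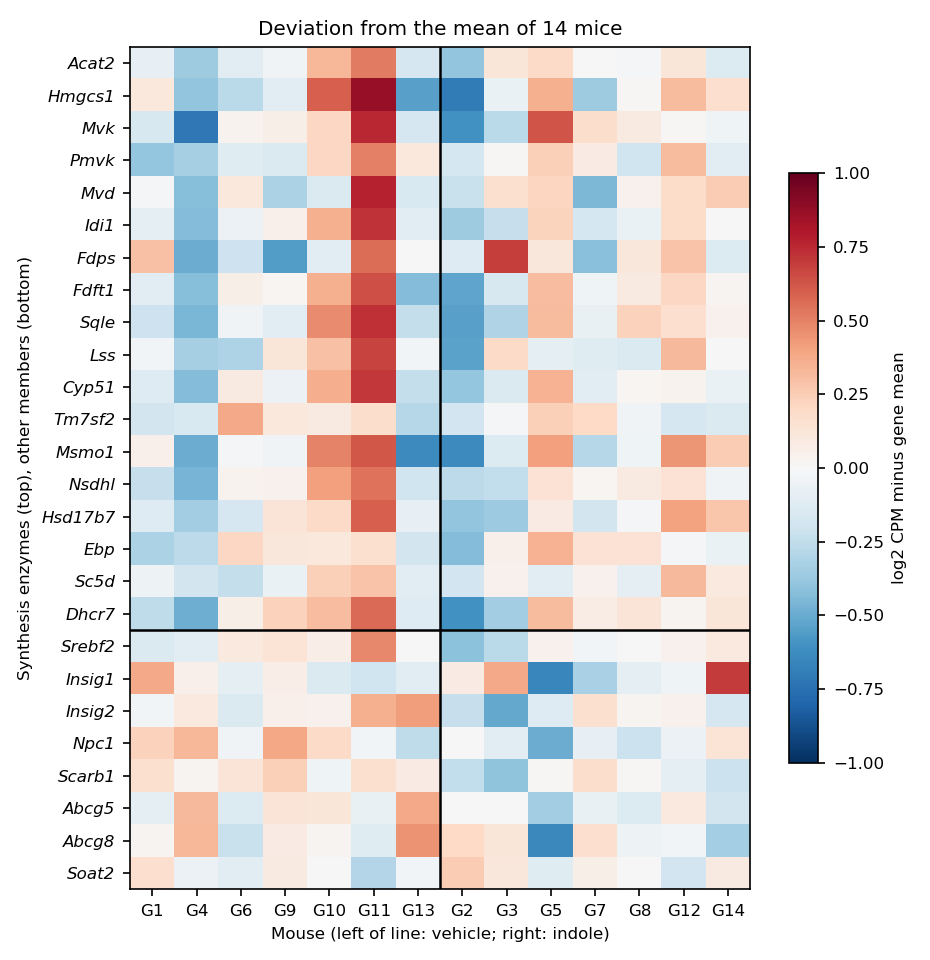
Log2 CPM minus the gene's mean over 14 mice, in colour, for the 18 synthesis enzymes (above the line) and 8 other cholesterol genes (below it), with vehicle-treated mice on the left and indole-treated mice on the right. Column G11 is red and columns G4 and G2 are blue for nearly every enzyme, while *Insig1*, *Npc1* and *Abcg8* do not follow them.

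Lists of other cell types and states also varied between mice. The summed level of 6 Kupffer cell markers ran from 63.6 to 188 CPM in the vehicle group, highest in G11, and from 86.0 to 340 CPM in the indole group, highest in G8, with 5 of the 6 markers higher in the indole group and 0 at an unadjusted *p* below 0.05. Of the 3 erythroid markers tested, 3 had an unadjusted *p* below 0.05 and were higher in the indole group, and the sum of that list ran from 186 to 352 CPM and from 244 to 990 CPM in the 2 groups. All 5 bile duct markers were lower in the indole group, with 1 of 5 at an unadjusted *p* below 0.05 (*Krt19*, log2 fold change −0.94). All 5 markers of sinusoidal endothelium were higher, with 1 of 5 below that threshold (*Clec4g*, 0.37) and a sum of 50.5 to 86.0 CPM in vehicle-treated and 58.9 to 120 CPM in indole-treated mice. Of the 5 stellate cell markers 3 were lower, with 1 below the threshold (*Col1a1*, −0.67). Of 11 clock genes and 8 genes of the fed and fasted state 0 had an unadjusted *p* below 0.05, although all 8 of the latter were higher in the indole group (median log2 fold change 0.19). The T and NK cell markers were at or below 11 reads in every mouse. The part of these lists in the values of the cholesterol genes was not tested. With G11 and G8 both left out, *Scarb1*, *Npc1* and *Abcg5* had an unadjusted *p* below 0.05, beside 3.85% of all genes tested. In that setting 12 of the 30 genes were lower.

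Ranked by the correlation of their levels with *Hmgcs1* over the 14 mice after removing the group means, the 12652 other genes tested were led by enzymes of synthesis. *Msmo1* came first (*r*=0.963), followed by *Fdft1* (0.921), *Idi1* (0.899), *Sqle* (0.891), *Acat2* (0.888) and *Cyp51* (0.880). The next 4 were *Erg28* (0.869), a scaffold of the enzymes that remove sterol methyl groups, *Gm5096* (0.83), *Gm9512* (0.825) and *Bhmt* (0.823), which methylates homocysteine. Of the 50 genes most like *Hmgcs1*, 13 were among the 17 other synthesis enzymes. Without G11 this number was 6, so the ranking leaned on that mouse. Within each group *Msmo1* kept a high value, with *r*=0.955 in vehicle-treated and 0.984 in indole-treated mice. The median correlation between pairs of the 18 enzymes was 0.738, with 151 of 153 pairs above 0, and it was 0.625 without G11. These are descriptions over 14 libraries, and all genes of a library also share its scaling and depth.

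Some enzymes ranked lower in that order, with *Pmvk* at 145, *Ebp* at 435, *Fdps* at 450 and *Tm7sf2* at 2170 (*r*=0.307). The ranks of the other cholesterol genes were spread widely. *Srebf2* ranked 59 (*r*=0.695), *Insig2* ranked 4712 and *Insig1* ranked 8068 of 12652. *Abcg8* (*r*=−0.632, rank 12513) and *Soat2* (*r*=−0.562, rank 12317), the liver enzyme that esterifies cholesterol inside cells, were near the bottom. Among 4 genes of uptake and transport, *Scarb1* (0.0382) and *Npc1* (−0.0894) showed almost no relation to *Hmgcs1*. The values were higher for *Npc2* (0.430, rank 993) and *Stard4* (0.180).

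The sequence upstream of the enzymes' start sites is shown for those that followed *Hmgcs1* most closely and for *Hmgcs1* itself, since their levels varied together from mouse to mouse. Sequences are from RefSeq on GRCm38.p6, which gave windows from 250 bases before to 50 after the start for 23 of the 30 genes; *Fdps*, *Fdft1*, *Sqle*, *Npc1*, *Stard4*, *Soat2* and *Scarb1* were not in that table. Capitals mark the sterol regulatory element (TCACNCCAC), the NF-Y box (CCAAT) and the GC box (GGGCGG), each searched on both strands, so that ATTGG and CCGCCC are the latter 2 read in reverse. Each line is written 5′ to 3′ on the gene's own strand.
Hmgcs1, chr13:119690104-119690342, plus strand: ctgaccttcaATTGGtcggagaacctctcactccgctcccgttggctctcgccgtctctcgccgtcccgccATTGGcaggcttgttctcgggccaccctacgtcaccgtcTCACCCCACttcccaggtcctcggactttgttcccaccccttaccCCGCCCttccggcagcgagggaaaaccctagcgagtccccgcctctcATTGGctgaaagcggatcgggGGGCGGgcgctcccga
Msmo1, chr8:64733619-64733748, minus strand: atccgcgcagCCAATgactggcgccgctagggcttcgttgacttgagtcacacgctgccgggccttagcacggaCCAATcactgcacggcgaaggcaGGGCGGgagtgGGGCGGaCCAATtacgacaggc
Idi1, chr13:8885527-8885605, plus strand: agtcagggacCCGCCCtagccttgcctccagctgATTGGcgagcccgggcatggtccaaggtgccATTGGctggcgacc
Acat2, chr17:12960743-12960768, minus strand: ggccatagctCCGCCCcccccagcac
Cyp51, chr5:4104712-4104842, minus strand: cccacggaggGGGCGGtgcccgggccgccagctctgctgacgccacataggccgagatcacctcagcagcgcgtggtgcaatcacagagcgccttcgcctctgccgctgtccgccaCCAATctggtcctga

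*Hmgcs1* held the sterol regulatory element 137 bases before its start site, the only match among the 23 genes, beside 1.44% of all 27025 genes in the table. The NF-Y box was in the window of 21 of the 23 genes and of 14 of the 15 enzymes of synthesis, beside 41.1% of all genes and 42.8% of genes tested. The GC box was in 19 of the 23 and in 14 of the 15 enzymes, beside 38.2% of all genes and 67.4% of genes tested. The matches are letters in a window, and the absence of a match says only that these letters were not there. *Msmo1* and *Hmgcs1* each carried the NF-Y box 3 times in the stretches shown, and *Idi1* carried it 2 times. *Acat2*, the fifth most like *Hmgcs1*, was the 1 enzyme of the 15 with no NF-Y box in its window, and it carried the GC box.

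Of the 6 pairs of cholesterol genes compared across the 14 mice, *Hmgcs1* and *Sqle* were the closest. Their log2 CPM gave Pearson *r*=0.892 (permutation *p*=3e-05, adjusted over the 6 pairs 0.00018) and Spearman rho=0.855 (permutation *p*=0.00012, adjusted 0.00072). The value was 0.914 within the vehicle group, 0.848 within the indole group and 0.786 without G11 and G2, the mice farthest from the median of *Hmgcs1*. For *Srebf2* and *Hmgcs1*, Pearson *r* was 0.675 (permutation *p*=0.00784, adjusted 0.0157) and rho was 0.538 (permutation *p*=0.0503, adjusted 0.0755). That relation rested on G11 and G2, because *r* was 0.217 without them, and it was 0.485 (permutation *p*=0.0944) without G11 alone. Within the groups it was 0.644 (vehicle) and 0.783 (indole).

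Neither INSIG gene followed *Hmgcs1* across mice. Pearson *r* with *Hmgcs1* was −0.136 for *Insig1* (permutation *p*=0.644, adjusted 0.655, rho=−0.235 with permutation *p*=0.417, adjusted 0.501). Within the groups it was −0.258 and −0.0936, and −0.138 without G14 and G5. For *Insig2* it was 0.132 (permutation *p*=0.655, adjusted 0.655, rho=−0.011 with permutation *p*=0.976, adjusted 0.976), with 0.110 and 0.0942 within the groups. It was 0.466 without G3 and G13, and −0.154 without G11.

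**Figure D4:**
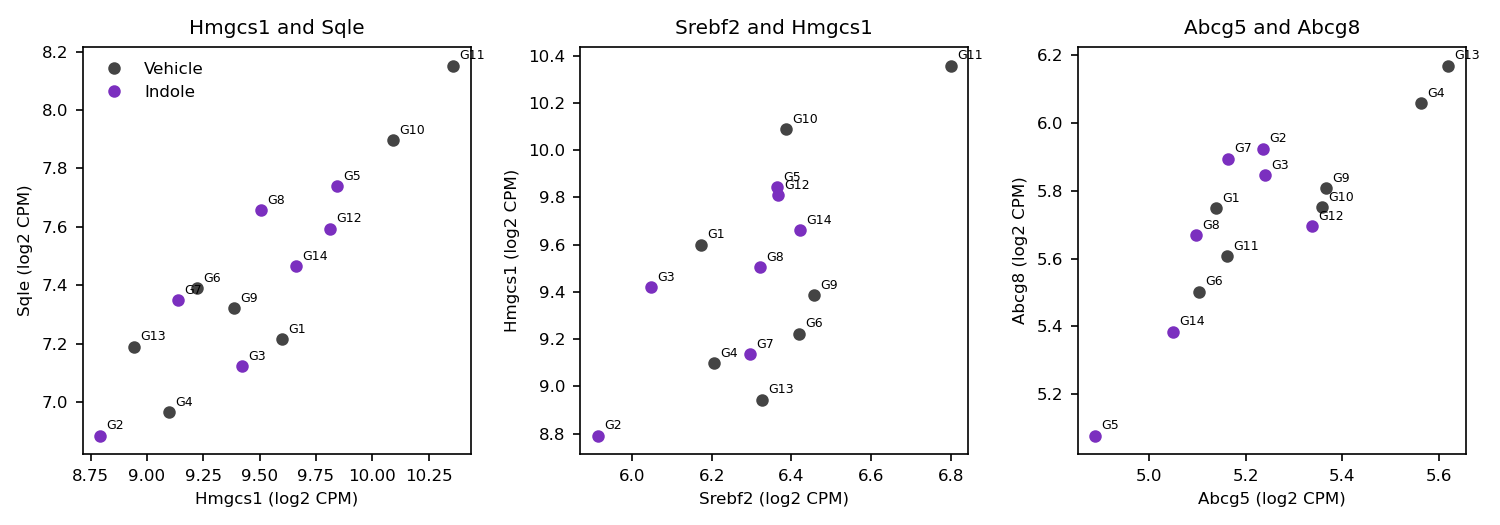
Log2 CPM of 3 pairs of genes in the 14 mice, each point a mouse named beside it, with vehicle in grey and indole in purple. *Hmgcs1* and *Sqle* (*r*=0.892) and *Abcg5* and *Abcg8* (*r*=0.855) lie along a line, whereas *Srebf2* and *Hmgcs1* (*r*=0.675) do so through G11 and G2 at the ends.

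Uptake and transport inside the cell held the other 2 of the 3 genes at an unadjusted *p* below 0.05. *Scarb1* encodes SR-BI, the receptor through which hepatocytes take cholesteryl esters from HDL, and lies at chr5:125277087-125341094 on the minus strand. It ran from 166 to 202 CPM with a median of 187 in vehicle-treated mice and from 129 to 193 CPM with a median of 160 in indole-treated mice. The groups overlapped, with 1 of 7 indole-treated mice, G7, above the vehicle median. The means were 184.6±11.9 and 159.9±21.5 CPM (SD, *n*=7), a log2 fold change of −0.21 (SE 0.0824), with an unadjusted *p*=0.0202 and an adjusted *p*=0.998 in edgeR. The exact permutation test, two-sided, gave *p*=0.0216. Of the 3 genes it lost the threshold in the fewest single-mouse omissions, with an unadjusted *p* above 0.05 when G3 (0.0526) or G9 (0.0518) was left out.

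*Npc1* encodes the membrane protein that exports cholesterol from lysosomes after lipoproteins are digested, and lies at chr18:12189692-12236400 on the minus strand. Its levels ran from 152 to 237 CPM with a median of 207 in vehicle-treated mice and from 128 to 199 CPM with a median of 171 in indole-treated mice. All 7 indole-treated mice lay below the vehicle median, although 3 vehicle-treated mice lay within the indole range. The means were 198.9±30.9 and 168.2±22.2 CPM, a log2 fold change of −0.24 (SE 0.103), with an unadjusted *p*=0.0289 and an adjusted *p*=0.998 in edgeR. The exact permutation test, two-sided, gave *p*=0.0612. The unadjusted *p* was above 0.05 when any of 5 mice was left out, with 0.0519 without G1, 0.0672 without G4, 0.0667 without G5, 0.0511 without G8 and 0.0762 without G9. The span of *Npc1*, introns included, shares 967 bases with that of *Rmc1* on the opposite strand.

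The partner of NPC1 inside the lysosome, *Npc2*, was at 75.4±5.82 and 77.7±12.4 CPM, a log2 fold change of 0.04 (95% interval −0.15 to 0.24). Across the 14 mice the correlation of *Npc1* and *Npc2* was negative, with Pearson *r*=−0.461 (permutation *p*=0.0961, adjusted 0.144) and rho=−0.543 (permutation *p*=0.048, adjusted 0.0755). The Pearson test did not pass 0.05 even before the correction, and neither passed after it. Within the groups *r* was −0.432 and −0.574, and it was −0.407 without G5 and G9. *Stard4*, a carrier of cholesterol between membranes, was at 223±13.9 and 219±35.2 CPM, a log2 fold change of −0.03 (SE 0.0893).

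The 2 genes of esterification differed little between the groups. *Lcat* was at 479±44.8 and 484±66.4 CPM, a log2 fold change of 0.02 (95% interval −0.18 to 0.21). *Soat2* was at 17.3±1.73 and 18.1±1.86 CPM, a log2 fold change of 0.06 (SE 0.0868).

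For export into bile, both transporters were lower in the indole group and neither had an unadjusted *p* below 0.05. *Abcg5* ran from 34.3 to 49.0 CPM with a median of 40.9 in vehicle-treated mice and from 29.5 to 40.3 CPM with a median of 35.7 in indole-treated mice. None of the 7 indole-treated mice was above the vehicle median, yet the lowest vehicle-treated mice lay inside the indole range. The means were 40.5±5.89 and 35.4±3.55 CPM, a log2 fold change of −0.19 (SE 0.0921, unadjusted *p*=0.0503 in edgeR). The exact permutation test, two-sided, gave *p*=0.0822. Its unadjusted *p* passed the threshold under 11 of 24 alternatives, among them leaving out G1 (0.0291), G2 (0.0482), G3 (0.0466), G6 (0.0244), G11 (0.0317) or G12 (0.0293). *Abcg8* was at 56.5±9.52 and 50.8±9.94 CPM, a log2 fold change of −0.15 (SE 0.127, unadjusted *p*=0.239).

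**Figure D5:**
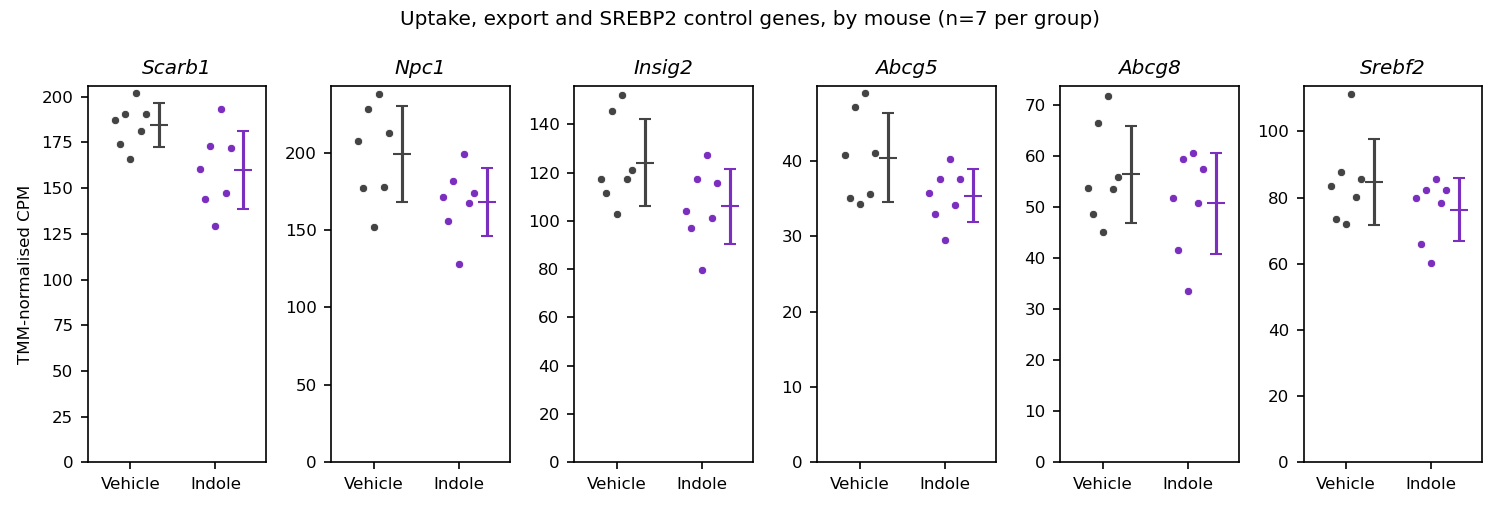
TMM-normalised CPM of 6 genes in each mouse (points, *n*=7 per group), with the group mean and SD beside them. For *Npc1* and *Abcg5* all 7 indole-treated mice lie below the vehicle median, while the ranges of the groups overlap for each gene.

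The 2 transporters followed each other from mouse to mouse. Pearson *r* between *Abcg5* and *Abcg8* was 0.855 (permutation *p*=0.00015, adjusted 0.00045) and rho was 0.824 (permutation *p*=0.00054, adjusted 0.00162). It was 0.943 among vehicle-treated mice, 0.829 among indole-treated mice and 0.770 without G13 and G4. RefSeq on GRCm38.p6 gives *Abcg8* 2 start sites on chromosome 17. One lies head to head with the start of *Abcg5*, with 109 bases between them, shown here because one stretch precedes both genes. The other, at 84676302, lies inside *Abcg5* and is where the deposited *Abcg8* model begins. None of the 3 motifs lies wholly inside it.
Abcg5–Abcg8 interval, chr17:84683012-84683120, plus strand: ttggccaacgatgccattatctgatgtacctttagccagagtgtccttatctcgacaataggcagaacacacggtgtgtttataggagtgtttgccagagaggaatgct

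The spans of the 2 deposited gene models, introns included, also share 6710 bases on opposite strands. The libraries were strand-specific, but whether the counting used the strand is not given in the sources used here. Reads from any exons within the shared bases could be credited to either gene. The correlation of the 2 genes is uncertain to that extent.

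Beyond the 30 genes, 51 other genes of the pathway were listed, of which 49 were tested. An unadjusted *p* below 0.05 was found for 5, or 10.2%, beside 3.81% of all genes tested, with 3 higher and 2 lower in the indole group and 0 at an adjusted *p* below 0.05 in edgeR. Of the 49, 28 were higher and 21 lower, and the median log2 fold change was 0.02. *Cyp27a1*, a mitochondrial sterol hydroxylase of bile acid synthesis, was at 344±13.8 CPM in vehicle-treated and 385±24.7 CPM in indole-treated mice, a log2 fold change of 0.16 (SE 0.0635, unadjusted *p*=0.0172). Every one of the 7 indole-treated mice exceeded its vehicle median, and the unadjusted *p* stayed below 0.05 in each of 24 alternatives, up to 0.0399.

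The other 2 higher genes were *Acat1*, the mitochondrial enzyme for acetoacetyl-CoA, and *Nus1*, which serves dolichol synthesis. *Acat1* was at 217±15.7 and 243±17.4 CPM, a log2 fold change of 0.16 (SE 0.0688, unadjusted *p*=0.0299). *Nus1* was at 45.2±3.33 and 49.9±2.86 CPM, a log2 fold change of 0.14 (SE 0.0659, unadjusted *p*=0.041). For both, all 7 indole-treated mice were above the vehicle median. Leaving out G2 (0.0567), G4 (0.0504), G7 (0.0594), G9 (0.0712) or G11 (0.0542) put *Acat1* above an unadjusted *p* of 0.05. For *Nus1*, G1 (0.0694), G2 (0.072), G5 (0.0549), G9 (0.0916), G10 (0.0646), G11 (0.066) and G14 (0.0776) did so, as did testing with no filter on low counts (0.0761).

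Both lower genes belong to the sterol sensing machinery of the endoplasmic reticulum. *Erlin1*, which binds SREBP complexes there, was at 46.0±1.09 CPM in vehicle-treated mice, between 44.1 and 47.7, and at 41.6±2.09 CPM in indole-treated mice, between 39.6 and 45.7. The groups overlapped narrowly, and its log2 fold change was −0.15 (SE 0.0583, unadjusted *p*=0.0218). *Rnf139*, a ubiquitin ligase of the same membrane, was at 48.2±3.53 and 43.2±1.74 CPM, a log2 fold change of −0.16 (SE 0.0637, unadjusted *p*=0.0229). The exact permutation test, two-sided, gave *p*=0.00175 for *Erlin1* and *p*=0.00233 for *Rnf139*, before any adjustment. Without G6 (0.0536) or G10 (0.0686) the unadjusted *p* of *Rnf139* was above 0.05, as was that of *Erlin1* with no filter on low counts (0.0561).

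The most abundant genes of the other lists per length did not separate. *Cyp8b1*, a sterol hydroxylase of bile acid synthesis, was at 458 CPM per kilobase in the vehicle group (log2 fold change 0.08, SE 0.116). *Cyb5a*, an electron donor to sterol enzymes, was at 281 CPM per kilobase (0.07, SE 0.0896), *Tmem97*, which binds NPC1, was at 97.6 CPM per kilobase (0.00844, SE 0.0909), *Lipc*, hepatic lipase, was at 79.3 CPM per kilobase (0.03, SE 0.0815) and *Stard5*, a sterol carrier, was at 31.3 CPM per kilobase (−0.08, SE 0.0652). *Tmem97* ranked 15 of 12652 in likeness to *Hmgcs1* (*r*=0.814).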

How the data were processed

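Liver RNA of 14 TALLYHO mice (7 vehicle, 7 indole, grouped from the sample labels) was analysed. The authors purified polyA RNA, prepared strand-specific libraries, used HISAT2 with GRCm38, retained the uniquely mapped reads and deposited raw counts per gene, without normalisation; the counting tool and its strand setting are not given in the sources used here. Totals per mouse ran from 15197498 to 21060376, and the 30 genes had vehicle means of 9.08 CPM or more. For most of them the counting error was small beside the spread between mice. It weighs more for *Soat2*, with 246 to 400 reads per mouse and a coefficient of variation of 9.99% in the vehicle group.

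Counts were compared with edgeR 4.0.16 in R 4.3.3 (TMM, filterByExpr, robust quasi-likelihood fit and test), with Benjamini–Hochberg adjustment over the 12653 genes tested. The SE is the log2 fold change divided by the square root of the F statistic. Single genes were also compared by an exact permutation test of log2 CPM (prior count 2), and pairs of genes by 100000 permutations. The procedure was tested on simulated data. Alternatives were RLE and upper quartile scaling, 2 filters on low counts, DESeq2 1.42.0, limma 3.58.1 voom with quality weights, a non-robust fit, 1 surrogate variable (sva 3.50.0) and leaving out each mouse. Leaving out G11 with G8, and the alternatives for the pairs, the likeness ranking and the spread, were chosen after seeing the data.

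The 30 genes, their role classes and the other lists were chosen with earlier results of these data known. Genes named with values were those with an unadjusted *p* below 0.05, the 5 smallest *p* and the most abundant per length of each class. The members of each pair and the 10 genes most like *Hmgcs1* were also named. *Scap*, *Soat2*, *Idi1*, *Fdps*, *Pmvk*, *Tm7sf2* and the cell type markers were named after their values were seen. The tolerance tests and other experiments of the study were not analysed here.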

Additional observations from a re-analysis of the deposited data

Results flagged for a closer look

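Each of the 30 genes and the total count per mouse was checked for outlying mice within each group, which made 62 checks. In 3 of them the gap between a mouse and its nearest neighbour was a large share of its group's range. The share was above Dixon's 95% critical value of 0.568 for 7 mice, a rule that chance meets in about 1 of 20 groups. All 3 were highest values in the vehicle group. *Insig1* was at 591 CPM in G1 with the next mouse at 475 CPM, a share of 0.591. *Mvd* was at 87.8 CPM in G11 with the next at 55.2 CPM, a share of 0.658. *Srebf2* was at 111 CPM in G11 with the next at 87.7 CPM, a share of 0.601.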

How the results depend on the processing

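No paired analysis was possible because each mouse has a name of its own and the groups share no replicate numbers. At an adjusted *p* below 0.05, DESeq2 on the filtered genes gave 1 gene, and leaving out any mouse gave 0. DESeq2 on every gene with a read gave 0 at that threshold, and 719 of 22535 at an unadjusted *p* below 0.05. Without a filter on low counts 1336 of 22535 genes, or 5.93%, had an unadjusted *p* below 0.05. With 1 surrogate variable 5 of the 30 cholesterol genes did (*Srebf2*, *Insig2*, *Scarb1*, *Npc1* and *Abcg5*), beside 5.12% of all genes tested. Leaving out each mouse gave 1 to 4 of the 30, beside 3.03% to 4.9% of all genes tested. *Scarb1*, *Npc1*, *Insig2*, *Abcg5*, *Abcg8* and *Srebf2* were lower in the indole group under each of the 24 alternatives, and for *Scarb1* the log2 fold change ran from −0.26 to −0.16.

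Log2 fold changes near 0 changed sign. *Lcat* was −0.0282 with 1 surrogate variable and −0.00833 without G11 and G8, and ran from −0.0212 to 0.068 when each mouse was left out. Without G11 and G8, *Hmgcs1* was 0.0491, *Stard4* 0.0265, *Sqle* 0.0278 and *Npc2* −0.0019. Leaving out each mouse gave −0.206 to 0.0518 for *Hmgcs1*, −0.0797 to 0.0191 for *Stard4*, −0.145 to 0.0705 for *Sqle*, −0.0249 to 0.0977 for *Npc2*, −0.00485 to 0.122 for *Ebp*, −0.0762 to 0.151 for *Insig1*, −0.0319 to 0.0694 for *Tmem97* and −0.00613 to 0.0655 for *Lipc*. *Tmem97* was −0.000755 in limma voom and −0.0127 with 1 surrogate variable. The median of the 30 genes ran from −0.11 to 0.03 when each mouse was left out.

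Across mice, leaving out each gave *r*=0.485 to 0.726 for *Srebf2* and *Hmgcs1*, −0.154 to 0.392 for *Insig2* and *Hmgcs1*, a median *r* of 0.625 to 0.766 between the enzymes, and 6 to 14 enzymes among the 50 genes most like *Hmgcs1*. Without both G11 and G8 these were 0.482 (permutation *p*=0.113), −0.159, 0.641 and 6. The enzymes with a wider spread in the vehicle group numbered 12 of 18 without G11. The cause of these changes was not tested. With 7 mice per group, the SE of a log2 fold change was 0.0694 to 0.234 for the 30 genes, which limits what could be seen.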
